A study of Mus musculus with 7 samples.

Results

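Cic and 9 genes named in polyglutamine or ataxin disease were followed in mouse cerebellum with and without Cic deletion. The 10 members (Cic, Atxn1, Atxn1l, Atxn2, Atxn3, Atxn7, Atxn10, Tbp, Htt and Atn1) were taken by gene symbol from the 24421 gene symbols counted in each library, and all 10 were present. RNA sequencing covered cerebellar tissue of C57BL/6 mice in 7 libraries. The 4 libraries titled CicKO carry the genotype En1-Cre; Cicflox/flox, in which Cre recombinase driven from En1, active early where midbrain and hindbrain form, cuts out floxed DNA in the cells derived from there. The 3 libraries titled Wildtype carry the genotype Cicflox/+ with no Cre named and are called controls here. An effect of Cre and an effect of losing Cic cannot be told apart in this design, and age, sex and litter are not stated. The labels also do not say that each library is a separate animal, so p-values measure the spread between these libraries, which may be technical.

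CIC is a DNA-binding repressor of the HMG-box family that holds down genes induced by receptor tyrosine kinase signalling. ATXN1 and its paralog ATXN1L bind CIC and stabilise it, and the ATXN1-CIC complex is the subject of the series title. Expansion of a CAG repeat that encodes glutamine causes spinocerebellar ataxia when it lies in ATXN1, ATXN2, ATXN3, ATXN7 or TBP, Huntington disease in HTT, and dentatorubral-pallidoluysian atrophy in ATN1. ATXN10 disease arises from an intronic repeat that encodes no glutamine, and Cic and Atxn1l are partners of Atxn1 rather than polyglutamine disease genes, so the label polyglutamine covers only 7 of the 10 members.

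Polyglutamine disease names refer to a glutamine run, so the longest such run of each mouse gene was sought. It was taken anywhere in the coding sequence and was not matched to the place of the human disease repeat. The sequences are those of the mouse reference genome, with no disease expansion. The longest uninterrupted run of CAG or CAA codons was found in the principal coding transcript of each member (GENCODE M21 on GRCm38), and is printed in capitals with up to 30 coding bases on either side in lower case, in the sense direction.
Tbp: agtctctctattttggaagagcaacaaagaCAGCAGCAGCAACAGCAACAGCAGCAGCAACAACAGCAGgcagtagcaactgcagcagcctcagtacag
Htt: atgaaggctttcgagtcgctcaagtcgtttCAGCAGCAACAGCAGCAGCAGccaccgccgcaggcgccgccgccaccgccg
Atxn3: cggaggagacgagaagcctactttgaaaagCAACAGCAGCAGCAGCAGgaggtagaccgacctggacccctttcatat
Atxn7: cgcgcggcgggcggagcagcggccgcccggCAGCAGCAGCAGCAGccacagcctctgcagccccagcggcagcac
Atxn1: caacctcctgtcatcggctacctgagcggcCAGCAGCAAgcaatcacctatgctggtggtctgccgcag

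The run in Tbp, which encodes the TATA-binding protein, was the longest at 13 codons (codons 58 to 70, 9 CAG and 4 CAA, exon 3, chr17:15504391-15504429, plus strand). Htt, which encodes the scaffold protein huntingtin, had 7 codons in exon 1 (chr5:34761958-34761978, plus strand). Atxn3, which encodes a deubiquitinase, had 6 in exon 10 (chr12:101926563-101926580, minus strand), and Atxn7, a subunit gene of the SAGA chromatin complex, had 5 in exon 2 (chr14:14013156-14013170, plus strand). The longest run in Atxn1 was 3 codons (codons 444 to 446, chr13:45567080-45567088, minus strand), as were those in Atxn2 and Atn1. Cic and Atxn1l had runs of 2 codons and Atxn10 had 1.

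The libraries held 102653765 to 121285349 gene counts. Levels are given as CPM, the count of a gene relative to its library's total, with libraries scaled by TMM so that a few abundant genes do not shift the rest, and a gene is called at an adjusted p below 0.05 in edgeR's quasi-likelihood test. Marker genes fitted cerebellum: the summed level of 10 granule neuron markers ran from 5308 to 6098 CPM over the knockouts and from 5504 to 5857 CPM over the controls, and that of 8 Purkinje cell markers from 7350 to 10353 and from 7405 to 8921 CPM. The summed level of 8 Bergmann glia and astrocyte markers was lower in every knockout (2880 to 3164 against 3586 to 3691 CPM, exact permutation p = 0.0286, adjusted p = 0.114 over 8 lists). Of these 8, 3 were called lower, where 0.828% of all genes tested were, and Hopx went the other way (log2 fold change 0.15, not called). Of 8 oligodendrocyte markers 1, Cldn11, was called lower (log2 fold change -0.83), and their sum overlapped between groups (3792 to 5978 against 5075 to 6373 CPM). The sum of 8 midbrain and hindbrain markers was higher in every knockout (31.8 to 64.2 against 11.1 to 29.8 CPM, exact permutation p = 0.0286, adjusted p = 0.114), nearly all of it from Th, and the defining markers Slc6a3, Slc6a4, Hoxa5, Pax7 and Tfap2d each averaged below 0.1 CPM over all libraries. The part of these markers in the members' levels was not tested. Knockout 3 and control 3 stood apart, with choroid plexus markers at 12150 and 8366 CPM against 212 to 368 CPM in the other 5 libraries. Results for Cic and Atxn1 are therefore also given without these 2 libraries.

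Cic, the deleted gene, was lower in every knockout library. Its level was 147, 146, 144 and 147 CPM in knockouts 1 to 4 and 216, 257 and 223 CPM in controls 1 to 3. The groups did not overlap, and the lowest control lay well above the highest knockout. The means were 146 ± 1.33 CPM (SD, n = 4) and 232 ± 22.2 CPM (SD, n = 3), a fall of 36.9% and a log2 fold change of -0.66 (SE 0.0622, 95% interval -0.81 to -0.52, edgeR adjusted p = 0.00256). Cic was the only 1 of the 10 members called, where 2.08% of the 16905 genes tested were called in either direction and 0.828% were called lower. Cic lies on chromosome 7 at 25267704 to 25294159 (GRCm38, plus strand), and no other annotated gene overlaps it. The gene is counted as a whole, so what remains includes any exons that are not floxed and any cells in which Cre was never made. The controls carry a floxed allele too.

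The knockouts differed very little among themselves in Cic. The coefficient of variation over the 4 knockouts was 0.909%, while counting error alone at their mean count would give 0.805%. Of 10052 genes averaging 10 CPM or more, 0.796% had a coefficient of variation as small in the knockouts. Over the 3 controls it was 9.58%, and of the other members only Atxn7 was higher, at 12.4%. The median over all genes tested was 8.11% in the controls and 7.66% in the knockouts. That set also holds genes averaging below 10 CPM. Without both libraries numbered 3 the log2 fold change was -0.69 (adjusted p = 0.00736), so the fall was as large without the libraries high in choroid plexus transcripts. In tissue RNA, fewer cells of a type and less RNA per cell cannot be told apart.

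**Figure D1:**
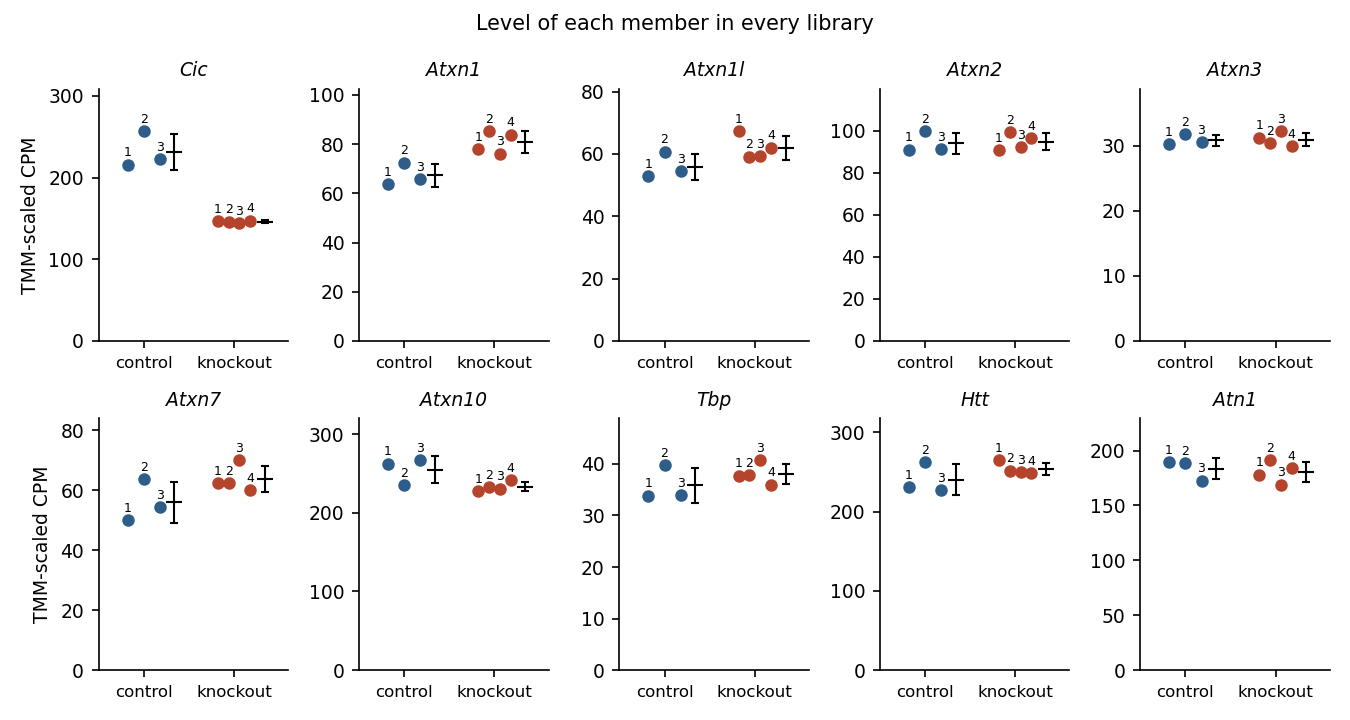
TMM-scaled CPM of each member in every library, with controls (blue, n = 3) and Cic knockouts (red, n = 4) numbered by replicate and black marks for mean ± SD. The knockouts lie below all controls for Cic (144 to 147 against 216 to 257 CPM) and above all controls for Atxn1 (76.1 to 85.4 against 63.7 to 72.5 CPM), and the groups overlap for the other 8 members.

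Atxn1, whose protein binds CIC and carries the expanded tract of spinocerebellar ataxia type 1, was higher in the knockout libraries but was not called. Its level was 78.0, 85.4, 76.1 and 83.8 CPM in knockouts 1 to 4 and 63.7, 72.5 and 65.8 CPM in controls 1 to 3. All 4 knockouts lay above all 3 controls, and control 2 was the nearest to them. The means were 80.8 ± 4.47 (SD, n = 4) and 67.3 ± 4.60 CPM (SD, n = 3), a log2 fold change of 0.26 (SE 0.0621, 95% interval 0.12 to 0.41, edgeR adjusted p = 0.0767). Cic and Atxn1 were the 2 members without overlap between the groups, while 15.4% of all genes tested had none.

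Whether Atxn1 passed depended on the setting. It passed in 6 of 17 alternatives: with the replicate number as a block in a fit that also dropped knockout 4, which has no partner (adjusted p = 0.0442, against 0.19 without knockout 4 and with no block), in DESeq2 (0.00359), with library size only as scaling (0.0496), with a covariate for choroid plexus markers (0.0486), without control 2 (0.0405) and without knockout 3 (0.0367). These settings called 3.02%, 6.98%, 2.22%, 4.13%, 3.36% and 5.03% of all genes. It did not pass without both libraries numbered 3 (log2 fold change 0.27, adjusted p = 0.115). Nor did it pass with the no-feature share as a covariate (0.17, adjusted p = 0.57), and its sign was positive in all 17. The no-feature share is the part of a file's entries that the counting assigned to no feature. Which parts of a gene counted as a feature was not given, so the share may include reads from introns. Atxn1 lies on chromosome 13 at 45549755 to 45965008 (minus strand). Its exons share 375 bases (2.69% of their length) with Gmpr on the opposite strand. Gmpr had a log2 fold change of -0.04 (adjusted p = 0.764).

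Atxn1l (chromosome 8, 109726451 to 109737739, minus strand), the paralog that also binds CIC, was not called. Its level was 67.4, 59.1, 59.3 and 62.1 CPM in knockouts 1 to 4 and 52.8, 60.7 and 54.4 CPM in controls 1 to 3, so control 2 lay above 2 of the knockouts. The log2 fold change was 0.15 (SE 0.0681, 95% interval -0.01 to 0.30, adjusted p = 0.338).

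Ratios of counts within a library do not depend on how libraries are scaled, and 3 of them were compared. The ratio of Atxn1 to Cic counts was 0.531, 0.584, 0.527 and 0.569 in knockouts 1 to 4 and 0.295, 0.282 and 0.296 in controls 1 to 3. The knockout mean of 0.553 ± 0.0281 (SD, n = 4) stood against 0.291 ± 0.00784 (SD, n = 3) without overlap (two-sided exact permutation p = 0.0286, the smallest that 4 against 3 libraries can give, adjusted p = 0.0429 over 3 ratios). The ratio of Atxn1l to Cic was likewise higher, at 0.405 to 0.459 over the knockouts and 0.236 to 0.245 over the controls (exact permutation p = 0.0286, adjusted p = 0.0429). Both ratios contain the deleted gene, so they had to be higher unless Atxn1 or Atxn1l fell as much as Cic. Their p-values therefore show no more than the fall of Cic. The ratio of Atxn1 to Atxn1l does not contain Cic. It was 1.16, 1.44, 1.28 and 1.35 in knockouts 1 to 4 and 1.21, 1.19 and 1.21 in controls 1 to 3. Knockout 1 lay below all controls and the other 3 knockouts above them, so a difference was not shown (exact permutation p = 0.229).

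**Figure D2:**
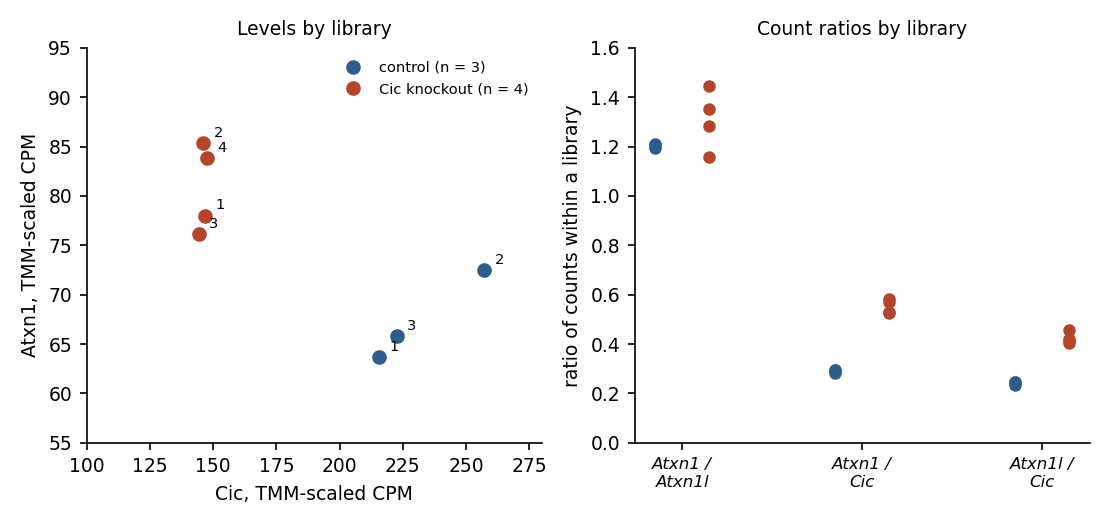
Left, Atxn1 against Cic in TMM-scaled CPM for each numbered library (axes do not start at 0); right, ratios of counts between members within each library, with controls in blue and knockouts in red. The groups separate on both axes on the left and for both ratios to Cic (0.527 to 0.584 against 0.282 to 0.296 for Atxn1), but overlap for Atxn1 to Atxn1l.

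The other ataxin genes were not called. Atxn2 (chromosome 5, 121711337 to 121816493, plus strand) encodes an RNA-binding protein of the cytoplasm. Its levels were 90.6, 99.4, 92.0 and 96.5 CPM in knockouts 1 to 4 and 90.9, 99.8 and 91.1 CPM in controls 1 to 3 (log2 fold change 0.01, 95% interval -0.11 to 0.13, adjusted p = 0.946). Atxn3 (chromosome 12, 101918901 to 101958246, minus strand) was at 31.2, 30.4, 32.3 and 29.9 CPM in knockouts 1 to 4 and 30.2, 31.8 and 30.5 CPM in controls 1 to 3 (0.01, 95% interval -0.11 to 0.12, adjusted p = 0.974). For these 2 genes the values interleaved between groups, and their intervals were among the narrowest of the members.

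Atxn7 (chromosome 14, 13961440 to 14107302, plus strand) was at 62.2, 62.3, 69.9 and 60.1 CPM in knockouts 1 to 4 and 50.001, 63.5 and 54.2 CPM in controls 1 to 3. All 4 knockouts were above controls 1 and 3, and control 2 was above 3 of the knockouts. The log2 fold change was 0.19 (SE 0.0878, 95% interval -0.01 to 0.39, adjusted p = 0.342). Atxn10 (chromosome 15, 85336245 to 85463212, plus strand), which encodes an armadillo-repeat protein, was at 227, 233, 231 and 241 CPM in knockouts 1 to 4 and 263, 235 and 267 CPM in controls 1 to 3. Here control 2 fell among the knockouts while the other controls were higher. The log2 fold change was -0.13 (SE 0.056, 95% interval -0.2564 to -0.0008, unadjusted p = 0.0489 in edgeR, adjusted p = 0.306).

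Tbp, Htt and Atn1 were not called either. Tbp (chromosome 17, 15499888 to 15528379, plus strand) was at 37.7, 37.9, 40.7 and 36.0 CPM in knockouts 1 to 4 and 33.9, 39.7 and 33.9 CPM in controls 1 to 3 (log2 fold change 0.09, 95% interval -0.08 to 0.25, adjusted p = 0.598). Of its merged exon length 19.0% is shared with Pdcd2 on the opposite strand, and the strand setting of the counting is not given in the sources used here, so the counts of this pair are uncertain. Pdcd2 itself had a log2 fold change of -0.14 (adjusted p = 0.281). Htt (chromosome 5, 34761740 to 34912534, plus strand) was at 265, 252, 250 and 249 CPM in knockouts 1 to 4 and 231, 263 and 227 CPM in controls 1 to 3 (0.08, 95% interval -0.06 to 0.22, adjusted p = 0.572). Atn1 (chromosome 6, 124742544 to 124756524, minus strand), which encodes the transcriptional corepressor atrophin-1, was at 178, 191, 169 and 184 CPM in knockouts 1 to 4 and 189, 189 and 173 CPM in controls 1 to 3 (-0.02, 95% interval -0.15 to 0.11, adjusted p = 0.879). In the annotation 84.2% of the Atn1 exon length is also part of Gm45234, a gene model on the same strand that the count files do not list.

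The groups overlapped for all 3 genes, and the SD over the controls exceeded the difference of means for each.

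Over the 10 members, 7 log2 fold changes were positive and 3 negative, with a median of 0.04, beside -0.0044 over all genes tested. The median absolute log2 fold change was 0.11, the same to 2 decimals as over all genes tested. At an unadjusted p below 0.05 stood 3 members (Cic, Atxn1 and Atxn10), and 16.2% of all genes did.

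**Figure D3:**
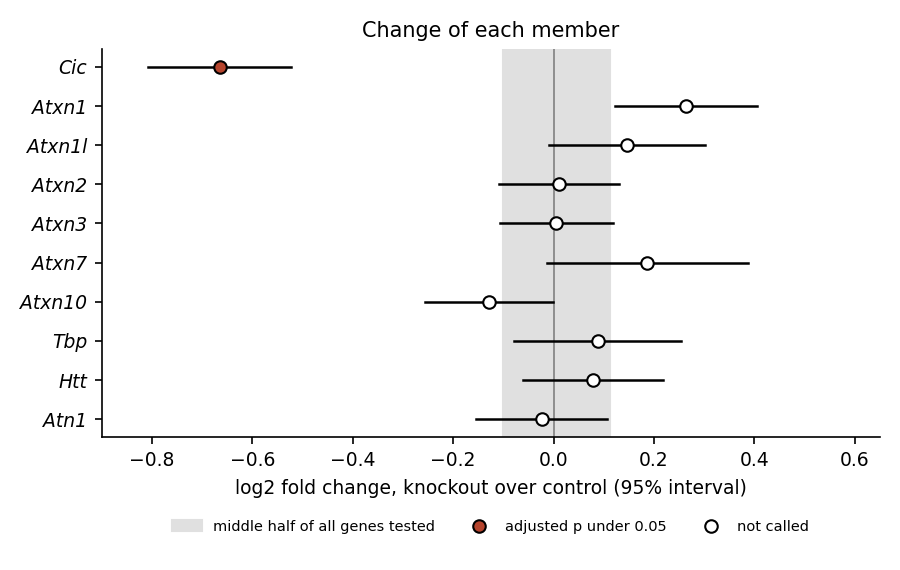
Log2 fold change of each member, knockout over control, with its 95% interval from the edgeR fit; the grey band holds the middle 50% of all genes tested. Cic at -0.66 is the only filled point (called), and of the other intervals only those of Atxn1 (0.12 to 0.41) and Atxn10 leave out 0.

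Control 2 stood apart among the controls for these genes. It was the highest of the 3 controls for 8 of 10 members (all but Atxn10 and Atn1) and the lowest for Atxn10, while it was the highest for 37.8% and the lowest for 37.3% of all genes tested. Its no-feature share was 18.6%, against 16.0% and 16.5% in controls 1 and 3 and 18.2% to 19.0% in the knockouts. With that share as a covariate the log2 fold changes of Atxn2, Atxn3, Atxn7, Tbp and Htt turned negative (-0.069, -0.0407, -0.0128, -0.0581 and -0.0231). Those of Atxn1l and Atxn10 came nearer to 0, at 0.0573 and -0.0291, and that of Cic was -0.80 (adjusted p = 0.00638). The share was high in every knockout and lower in controls 1 and 3, so this covariate is hard to separate from genotype. The part of this share in the members' levels was not tested. In a fit without control 2 the log2 fold changes of Atxn1 (0.32), Atxn1l (0.21), Atxn7 (0.29) and Tbp (0.17) lay further from 0. So did those of Htt (0.15), Atxn10 (-0.18), Atxn2 (0.06) and Atxn3 (0.03). Those of Cic (-0.58) and Atn1 (-0.0033) lay nearer to 0, and only Cic and Atxn1 were called.

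Levels of different members can be compared per exon length, as CPM per kilobase of merged annotated exons. In the controls Atxn10 was highest at 131.5 ± 9.0 (SD, n = 3), followed by Atn1 at 39.9 ± 2.06, Cic at 22.5 ± 2.16 and Htt at 9.84 ± 0.794 CPM per kilobase. The ranges over the 3 controls did not overlap between any of these neighbours. Below them came Atxn1l (7.44 ± 0.554), Atxn7 (7.01 ± 0.868), Atxn2 (5.99 ± 0.323) and Atxn3 (5.71 ± 0.153), and each of these overlapped the next in its range. Atxn1 (4.84 ± 0.330) and Tbp (2.64 ± 0.247 CPM per kilobase) were the lowest and overlapped no neighbour. In the knockouts Cic kept rank 3 at 14.2 ± 0.129 (SD, n = 4), and Atxn1 at 5.81 ± 0.321 came before Atxn3 at 5.73 ± 0.189 CPM per kilobase with overlapping ranges. The order depends on the gene model: per kilobase of the principal transcript alone, Atxn2 moved from rank 7 to rank 4 at 21.0 CPM per kilobase in the controls, before Htt at 18.2. Tbp kept rank 10, but its principal transcript has 12794 bases, 948 of them coding, against 13576 bases of merged exons. Its rank therefore rests on 1 long model, and a shorter one was not tried.

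**Figure D4:**
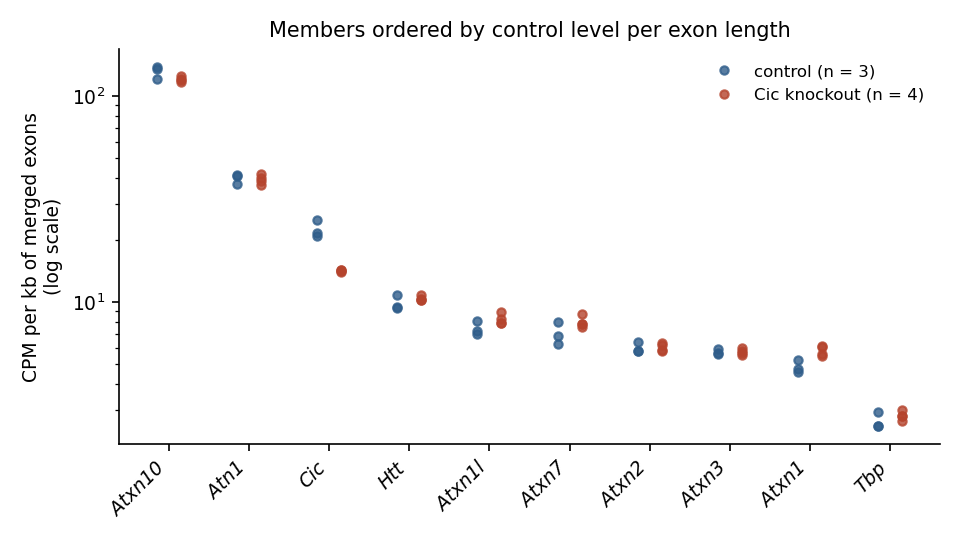
CPM per kilobase of merged exons for each library on a log axis, members ordered by their control mean, controls (n = 3) in blue and knockouts (n = 4) in red. Atxn10 (131.5 in the controls) and Atn1 (39.9) lead in both groups, and Cic is the only member whose groups stand far apart (22.5 against 14.2).

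CIC binds an octamer, and the promoters of the members were searched for the forms TGAATGAA and TGAATGGA on both strands. Other forms of the octamer were not searched. RefSeq promoter sequences (GRCm38.p6, 250 bases before to 50 after a gene's start) matched 8 of the 10 members, with 10 promoters in all. Atxn1 and Atn1 had no entry and were not searched. A single match was found, TGAATGGA at 212 bases before the second start of Atxn2 on chromosome 5. Neither of the 2 Cic promoters nor that of Atxn1l held a match. Of all 32851 such promoters 2.47% held 1. A match is a run of letters and does not show binding.

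Genes that work with the members, or cause similar disease, were mostly not called. Cacna1a, the P/Q-type calcium channel gene and a polyglutamine disease gene outside the members, averaged 551 ± 49.0 CPM in the knockouts (SD, n = 4) and 485 ± 66.8 CPM in the controls (SD, n = 3). It was not called by edgeR (log2 fold change 0.19, adjusted p = 0.434), DESeq2 or limma-voom. Among 9 tested relatives of the members 0 were called in edgeR, DESeq2 or limma-voom (2 at an unadjusted p below 0.05 in edgeR), the closest being Josd1 (-0.13, adjusted p = 0.242) and Atxn7l1 (0.16, adjusted p = 0.26).

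Of 24 tested partner proteins of ATXN1 and CIC, 0 were called in edgeR or limma-voom and 5 had an unadjusted p below 0.05, 4 of them higher, a share near the 16.2% of all genes tested. Rps6ka5, which encodes a nuclear kinase of the MSK family, ranged from 65.9 to 68.5 CPM over the knockouts and from 49.7 to 59.2 CPM over the controls (log2 fold change 0.29, SE 0.0626, adjusted p = 0.0628). Rora, the orphan receptor gene needed for Purkinje cell development, was at 442 to 533 and 381 to 416 CPM (0.29, SE 0.0759, adjusted p = 0.102). Neither overlapped between groups. DESeq2 called both (adjusted p = 0.00171 and 0.0036), with 4 of the list in all, 3 of them higher, where it called 6.98% of all genes. Over the 17 alternatives Rps6ka5 was called in 4 (adjusted p from 0.00171 to 0.476) and Rora in 3 (from 0.0036 to 0.488), and both log2 fold changes stayed positive. The median log2 fold change of the list was -0.03.

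The protein complexes around the other members gave 0 calls in edgeR and in limma-voom. Of 15 TBP-associated factors 2 were lower at an unadjusted p below 0.05, Taf10 (-0.24, adjusted p = 0.0675, or 0.00363 in DESeq2) and Taf4b (-0.51, adjusted p = 0.249). Of 14 SAGA genes 1 was, Tada2b (-0.18, adjusted p = 0.192), and Supt3 followed at -0.16 (adjusted p = 0.34). Of 10 huntingtin partners 1 was higher at that level, Hap1 (0.18, SE 0.0463, adjusted p = 0.0929, or 0.00745 in DESeq2), a trafficking adaptor, followed by the calcium release channel gene Itpr1 (0.24, adjusted p = 0.384). Of 11 partners of ataxin-2 and ataxin-3 there were 2, Pabpc1 (-0.12, adjusted p = 0.207) and Tardbp (0.18, adjusted p = 0.246). DESeq2 called Taf10 and Hap1 and 0 genes of the SAGA list and of the partners of ataxin-2 and ataxin-3. The medians of these 4 lists lay between -0.02 and 0.06.

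Of 23 tested genes of other dominant ataxias 2 were called higher and 0 lower, beside 1.25% of all genes called higher and 0.828% called lower. The median over the list was 0.01 on the log2 scale. Ccdc88c, which encodes a Dishevelled-binding protein of Wnt signalling, was at 29.1, 26.1, 24.2 and 23.5 CPM in knockouts 1 to 4 and 16.6, 16.7 and 18.9 CPM in controls 1 to 3 (log2 fold change 0.56, SE 0.0881, adjusted p = 0.0213). Cacna1g, the gene of a T-type calcium channel, was at 478, 421, 424 and 461 CPM in knockouts 1 to 4 and 353, 357 and 339 CPM in controls 1 to 3 (0.35, SE 0.0625, adjusted p = 0.0317). All knockouts lay above all controls for both. The call of Ccdc88c was lost without knockout 1 (adjusted p = 0.0538), knockout 2 (0.0604) or control 1 (0.102), and with the no-feature share as a covariate (0.13). Its log2 fold change stayed between 0.50 and 0.65 over the 17 alternatives. The call of Cacna1g was lost without knockout 1 (0.0913), knockout 2 (0.0578), knockout 4 (0.103), control 1 (0.106) or control 3 (0.142), and with that covariate (0.275), while its log2 fold change stayed between 0.32 and 0.38 over the 17 alternatives.

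**Figure D5:**
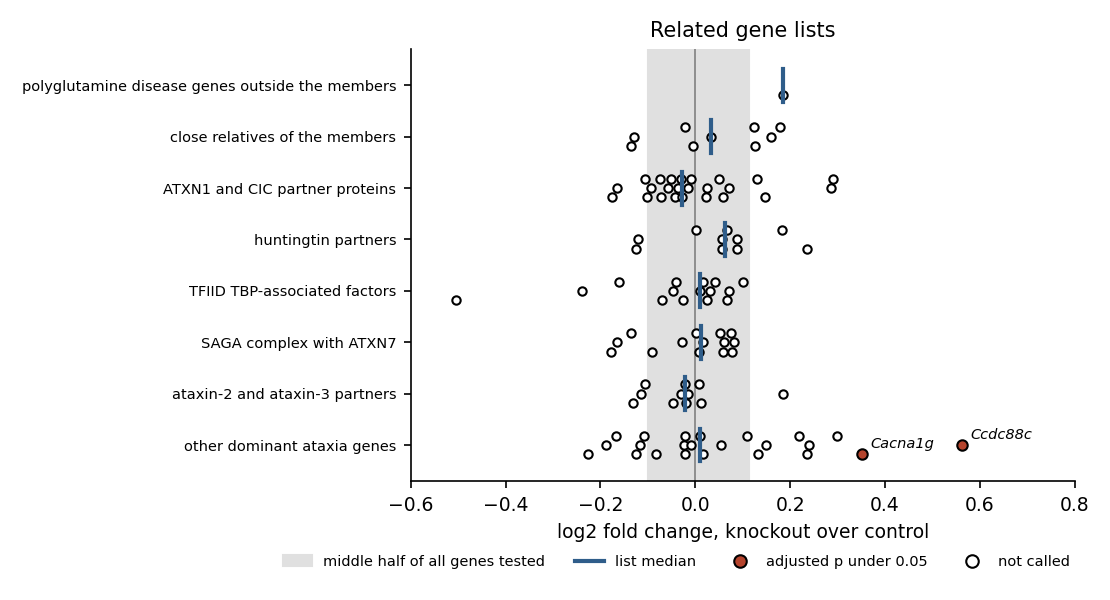
Log2 fold changes, knockout over control, of the tested genes of 8 related lists; filled points passed an adjusted p below 0.05, blue bars mark list medians and the grey band holds the middle 50% of all genes tested. Cacna1g (0.35) and Ccdc88c (0.56) are the only filled points, and the single point of the top row is Cacna1a (0.19).

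The genes whose log2 CPM followed Cic most closely over the 7 libraries, among the 10052 genes averaging 10 CPM or more, were Chtf8 (Pearson r = 0.994), Folh1 (0.983), Megf11 (0.983), Tspyl5 (0.982) and Fam163b (0.981). Their changes were of very different size, from -0.10 for Chtf8 (adjusted p = 0.196) to -1.37 for Fam163b (adjusted p = 0.00826), which fell from 18.5 ± 4.79 to 7.19 ± 0.878 CPM. For Atxn1 they were Fnip2 (0.983), Tst (0.978), Dhrs11 (0.977), Nphp4 (0.977) and Zfp322a (0.971), and of these only Tst was called (log2 fold change 0.37, adjusted p = 0.0463). Tst was called in 9 of 17 alternatives and in 1 of the 7 that left out a single library (that without knockout 3), with log2 fold changes from 0.33 to 0.42. These correlations are across 7 libraries in 2 groups and serve as a description.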

How the data were processed

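RNA of 7 cerebellar libraries was amplified with a kit that primes both at poly(A) tails and at random, per the labels' protocols. The deposited values are raw counts for each gene symbol, 1 file for each library. STAR 2.5.3a, HTSeq, DESeq2 and mm10 (GRCm38) appear in the submitters' processing notes, and the annotation and strand setting were not given in the sources used here. The 5 HTSeq summary rows were kept out of library sizes and tests. The no-feature row made up 16.0% to 19.0% of a file's entries.

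The analysis used R 4.3.3 and edgeR 4.0.16. Of the genes, filterByExpr retained 16905, all 10 members among them, and TMM set the scaling. A robust quasi-likelihood F test in edgeR compared knockout with control without further terms, and p-values were Benjamini-Hochberg adjusted over all genes tested. Adjusted p-values of genes come from that test where no other tool is given. A standard error is the log2 fold change over the root of F, and 95% intervals take the fit's degrees of freedom. Alternatives were DESeq2 1.42.0, limma-voom (limma 3.58.1), other scalings and filters, covariates and left-out libraries. Alternatives for named genes outside the members were chosen after seeing the data. The test was tried on simulated data. For single values a two-sided exact permutation test used all 35 splits. PCR copies were not marked, so counting error understates the noise.

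The members and lists were chosen with earlier results of these data known. The genes to name were all members, Cacna1a, up to 4 called genes of each related list or else its 2 with the lowest adjusted p, and the 5 genes most correlated with Cic and with Atxn1. Gmpr and Pdcd2 were added because they overlap members. Taf4 and Sgf29 were counted as Taf4a and Ccdc101, and Tbpl2, Gfi1 and Tgm6 did not pass the filter. Some listed genes are not reported here.

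Replicate numbers 1 to 3 occur in both groups. Deviations from the group means correlated at 0.166, 0.467 and 0.819 between same-numbered libraries over 13987 genes, all above the 0.1 taken as pairing, but libraries of different number reached 0.486 (knockout 1 with control 2). No pair within a group agreed within sampling noise (mean chi-square per gene of 18.5 to 157), so none was taken for a repeat deposit of 1 library. That does not show that they come from separate animals.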

Additional observations from a re-analysis of the deposited data

Results flagged for a closer look

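In the 4 knockouts, 21 values were examined for a library far from the others. The summed choroid plexus markers of knockout 3, at 12150 CPM, were far above the other 3 knockouts (212 to 312 CPM), and control 3 was high as well at 8366 CPM. The summed midbrain and hindbrain markers of knockout 3 were also far above, at 64.2 CPM, of which Th made up 63.3 CPM. Chance alone flags about 1 in 20 such groups. No member and none of the 3 ratios between members was far from the others in this way.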

How the results depend on the processing

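Cic kept its direction and its call in all 17 alternatives, with log2 fold changes from -0.80 to -0.58 and adjusted p from 8.53e-20 to 0.0152. Members called numbered 1, or 2 (Cic and Atxn1) in DESeq2, with library size only, with the replicate block (which also drops knockout 4), with the choroid plexus covariate, and without control 2 or knockout 3. Atxn1 was at a log2 fold change of 0.25 both with the block and without knockout 4 alone (adjusted p = 0.0442 and 0.19), and no other member's call changed with the block. Over all genes 212 were called higher and 140 lower. DESeq2 called 678 and 502, the no-feature covariate 46 and 12, the choroid plexus covariate 381 and 318, the block 302 and 206 (79 and 28 without knockout 4 and with no block), and leaving out 1 library 65 to 493 higher and 21 to 349 lower (1 to 2 members). The cause of these shifts was not tested. Signs turned for genes that were not called. With the no-feature covariate the values were -0.069 for Atxn2, -0.0407 for Atxn3, -0.0128 for Atxn7, -0.0581 for Tbp and -0.0231 for Htt. Without both libraries numbered 3 Atxn3 was at -0.0234, and with no filter at -0.0005. Leaving out 1 library moved Atxn2 from -0.0134 to 0.0562, Atxn3 from -0.0157 to 0.0272 and Atn1 from -0.0665 to 0.0063. No scaling moved the median of all genes by 0.1 on the log2 scale. Both ratios to Cic stayed higher without any single library, at exact permutation p of 0.0667 or 0.1, the smallest that so few libraries allow. As they contain the deleted gene, this shows no more than the fall of Cic.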
